A study of Mus musculus with 8 samples.

Results

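The 9 genes described here, Spry1, Spry2, Spry4, Spred1, Dusp4, Dusp5, Dusp6, Etv4 and Etv5, are feedback genes of the ERK pathway. They were chosen by gene name in the authors' deposited comparison table and joined by identifier to the 8 columns of the count table, which lists 49671 gene identifiers. All 9 were found, and all 9 were among the 20162 genes that passed the filter on low counts. The study asked, by bulk RNA-seq, what forced Hedgehog signalling does to GLI2+ cells of the adult mouse lung stroma. The SmoM2 group held 4 mice of genotype Gli2creERT2-tdt:R26RYFP/SmoM2, which carry a constitutively active Smoothened, and the control group held 4 mice of genotype Gli2creERT2-tdt:R26RYFP. Both groups thus carry the tamoxifen-dependent Cre at Gli2 and the YFP reporter, and YFP+ cells were sorted from dissociated whole lung. Tamoxifen was given at 200 mg/kg per day for 5 days to switch on SmoM2; the dosing of controls and the exact ages are not given in the sources used here. Cre was driven by Gli2, so SmoM2 and YFP are limited to cells in which that gene was active, and each library is a mixture of such cells.

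ERK is the kinase at the end of the cascade that carries signals of FGF, PDGF, EGF and other receptor tyrosine kinases through RAS, RAF and MEK. Active ERK switches on genes whose products dampen the same cascade: Sprouty and Spred proteins act near RAS and RAF, and dual-specificity phosphatases remove the activating phosphates from ERK itself. Etv4 and Etv5 are ETS transcription factors downstream of FGF signalling, best known in the lung from the epithelium of the growing branches. RNA levels of these genes are widely read as a record of recent ERK activity.

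The 8 libraries held 91616181 to 111615243 units of estimated count. In each library 5 units was the commonest count besides 0, and taking that as a fragment gives 18323236 to 22323049 fragments. Levels are given below as CPM (counts scaled to the same library total) after TMM scaling. Stromal markers were abundant, with the 8 genes of that list summing to 18510 to 30630 CPM in SmoM2 libraries and 15440 to 31080 CPM in control libraries. Markers of other cells were also present, none of them at 0 in all libraries: the 14 epithelial markers summed to 322.7 to 1109 CPM in SmoM2 and 407.3 to 1704 CPM in control libraries, with the highest sums in SmoM2 library 3 and control library 4. The 8 mesothelial markers summed to 99.6 to 184.5 CPM in SmoM2 libraries and 190.6 to 460.4 CPM in control libraries, with no overlap. The 14 immune markers summed to 485.8 to 1465 CPM in SmoM2 and 490.9 to 681.9 CPM in control libraries, and the 12 endothelial markers to 120.0 to 193.5 CPM in SmoM2 and 123.0 to 243.8 CPM in control libraries. The 10 cartilage markers summed to 377.0 to 2224 CPM in SmoM2 and 154.3 to 1664 CPM in control libraries. Within each group this sum was lowest in SmoM2 library 3 and control library 4. The 8 smooth muscle markers summed to 851.1 to 1405 CPM in SmoM2 and 1169 to 1520 CPM in control libraries. The 8 pericyte markers summed to 564.6 to 978.4 CPM in SmoM2 and 555.8 to 876.0 CPM in control libraries. Marker by marker, the endothelial list was lower in SmoM2 for 9 of 12 (median log2 fold change -1.11, with Kdr and Esam not overlapping), although its abundant genes Tek and Ramp2 were higher in mean level. The epithelial list was lower for 12 of 14 (median -0.37, 3 not overlapping), the mesothelial list for 8 of 8 (median -1.25, 4 not overlapping) and the immune list for 4 of 14 (median 0.41). The cartilage list was higher for 10 of 10 (median 0.6). The smooth muscle list was lower for 7 of 8 (median -0.32) and the pericyte list for 5 of 8 (median -0.18). Over all 20162 genes tested, the groups did not overlap for 2.44%, and 0 genes were called. None of these markers was called, and the part of other cells in the levels below was not tested. The Hedgehog target Gli1 averaged 101.3 ± 21.5 CPM in SmoM2 and 99.3 ± 32.9 CPM in control libraries (SD, n = 4 each). Its log2 fold change was 0.03 ± 0.25 (SE), so the usual transcriptional readout of the allele did not separate the groups.

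The promoters of Dusp6 and Dusp5 are shown because they held more copies of a searched motif than the other members searched. From the RefSeq promoter table (build GRCm38.p6), 7 promoters of 6 members were searched on both strands, over the 250 bases before each annotated start. Spry4, Dusp4 and Etv4 were not searched. Capitals mark CGGAA (or its reverse complement TTCCG), the core letters read by ETS factors, and CArG boxes, the motif of serum response factor. Dusp6 lies on the plus strand, its window at chr10:99262981-99263230, and Dusp5 on the plus strand, at chr19:53528895-53529144.
Dusp6: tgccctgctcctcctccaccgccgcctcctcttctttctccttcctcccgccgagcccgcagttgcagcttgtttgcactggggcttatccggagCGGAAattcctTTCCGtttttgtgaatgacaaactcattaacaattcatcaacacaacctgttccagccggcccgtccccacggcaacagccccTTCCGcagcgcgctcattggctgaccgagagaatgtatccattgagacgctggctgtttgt
Dusp5: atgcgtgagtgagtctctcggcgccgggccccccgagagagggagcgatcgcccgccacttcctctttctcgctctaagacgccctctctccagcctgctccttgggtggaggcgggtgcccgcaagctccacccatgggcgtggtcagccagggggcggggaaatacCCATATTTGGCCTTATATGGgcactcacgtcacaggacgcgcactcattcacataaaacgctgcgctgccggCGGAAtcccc
The Dusp6 window held 3 copies of CGGAA, ending 151, 140 and 57 bases before the start. Of 32851 promoters of the same length, 25.19% held at least 1 copy and 2.12% held 3 or more. The Dusp5 window held 2 CArG boxes side by side, 82 to 73 and 72 to 63 bases before the start, and 1 CGGAA. At least 1 CArG box was found in 1.47% of the promoters, and 2 or more in 0.02% (6 promoters). Spred1 held 1 CGGAA, 17 to 13 bases before its start, and no window of Spry1, Spry2 or Etv5 held any motif named here. The GLI-type letters GACCACCC (0.7% of all promoters) and the AP-1 letters TGANTCA (6.75%) were in none of the 7 windows.

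None of the 9 feedback genes passed the test for a difference between SmoM2 and control stroma. In edgeR's quasi-likelihood test with Benjamini-Hochberg adjustment over all genes, 0 of 9 were called at an adjusted p under 0.05, against a background of 0.0% of the 20162 genes tested; the adjusted p was 0.9999 for each of the 9. At an unadjusted p under 0.05, 0 of 9 passed, beside 3.75% of all genes tested. The 2 groups of 4 libraries overlapped for all 9 genes, beside 2.44% of all genes tested whose groups did not. Of the 9, 4 had a higher mean level in SmoM2 and 5 a lower one, with a median log2 fold change of -0.02, against 0.0 over all genes tested, 49.0% of which had a fold change above 0. DESeq2 called 0.285% of 24185 genes and none of the 9, and the authors' deposited table has 0.0498% of 30127 genes under 0.05 and an adjusted p of 1 for each of the 9. In sorted bulk cells, fewer cells of a type and less RNA per cell cannot be told apart.

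**Figure D1:**
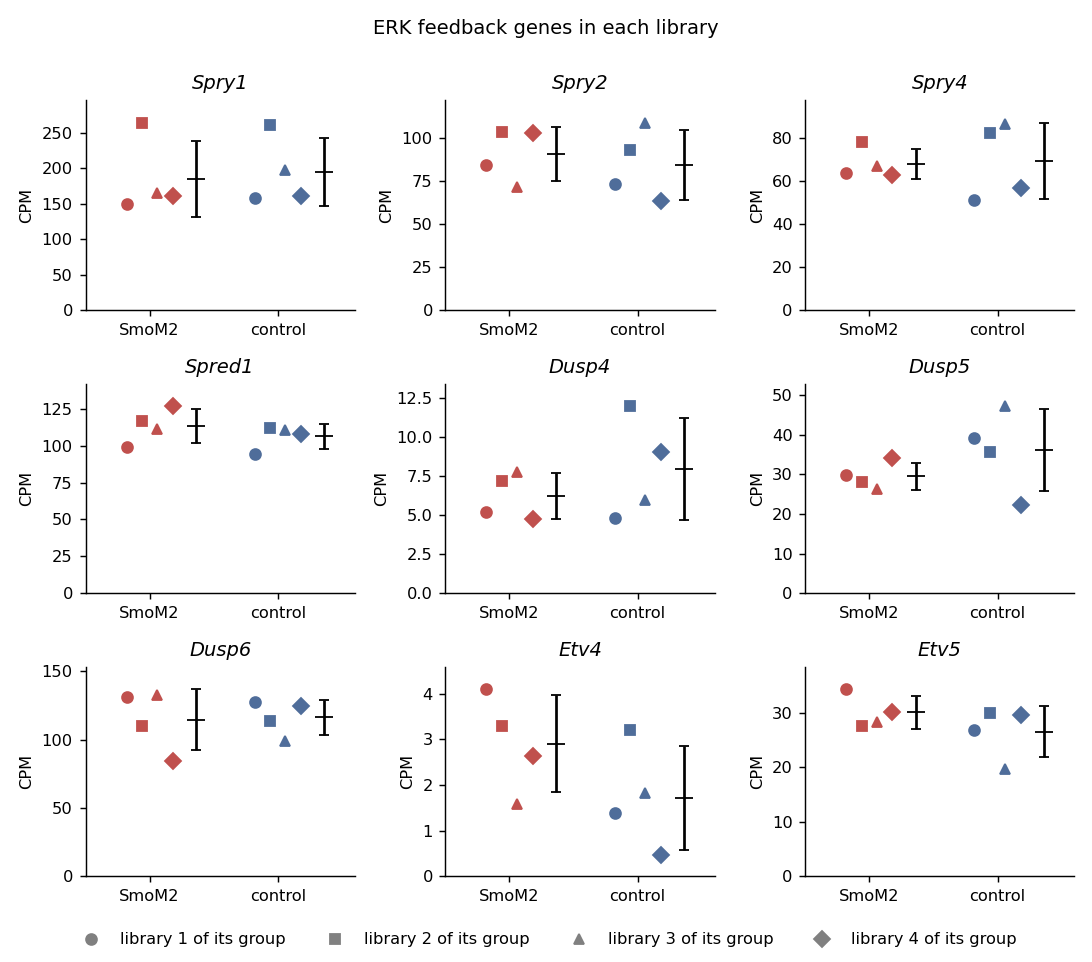
Level of each ERK feedback gene (y axes, CPM on linear scales that start at 0) in the 4 SmoM2 and the 4 control libraries (x axes), with 1 symbol per library and the mean ± SD beside each group. The groups overlap in all 9 panels.

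Spry1 (ENSMUSG00000037211, chromosome 3, 37639947 to 37644598, mm10) encodes a Sprouty adaptor that restrains receptor tyrosine kinase signalling. Its level was 149.2, 264.6, 164.7 and 161.6 CPM in SmoM2 libraries 1 to 4, and 158.7, 261.3, 198.0 and 161.2 CPM in control libraries 1 to 4. Library 2 of each group stood high, at 264.6 CPM in SmoM2 and 261.3 CPM in control, while the others lay between 149.2 and 198.0 CPM, and the groups overlapped. The log2 fold change was -0.07 ± 0.23 (SE; 95% interval -0.59 to 0.44), and the sign was the opposite without SmoM2 library 1 (0.01) or without control library 2 (0.10). A transcript annotated on the other strand, Gm42922, shares 710 bases of exon with Spry1 and averaged 2.91 CPM; whether the counting used strand is not given in the sources used here.

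Spry2 (ENSMUSG00000022114, chromosome 14, 105891947 to 105896819) encodes the Sprouty protein best known in lung for limiting FGF10-driven branching. It had 84.5, 103.6, 71.7 and 103.2 CPM in SmoM2 libraries and 73.1, 92.9, 109.0 and 63.4 CPM in control libraries. The highest and the lowest library were both controls, so the SmoM2 values lay within the control range. Between groups the log2 fold change of Spry2 was 0.10 ± 0.19 (95% interval -0.33 to 0.53), and -0.01 without control library 4.

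Spry4 (ENSMUSG00000024427, chromosome 18, 38586247 to 38601415) encodes a further Sprouty inhibitor of the path to RAF. It had 63.6, 78.1, 67.1 and 62.7 CPM in SmoM2 libraries and 51.4, 82.4, 86.8 and 56.8 CPM in control libraries. The SmoM2 libraries again lay inside the control range, with an SD of 7.07 CPM against 17.9 CPM in controls. For Spry4 the log2 fold change was -0.03 ± 0.18 (95% interval -0.44 to 0.38). It was above 0 without SmoM2 library 4 (0.01), control library 2 (0.06) or control library 3 (0.09).

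Spred1 (ENSMUSG00000027351, chromosome 2, 117121374 to 117182279) encodes a Sprouty-related protein that recruits neurofibromin, the RAS-inactivating product of Nf1, to the membrane. It had 99.2, 116.5, 111.4 and 127.0 CPM in SmoM2 libraries and 94.1, 112.3, 110.4 and 108.2 CPM in control libraries. It was the steadiest of the 9: the highest library was 1.35 times the lowest, and 15.4% of all genes tested had a smaller SD within groups on the log2 scale. The groups overlapped, and the mean was 113.5 ± 11.6 CPM in SmoM2 and 106.3 ± 8.26 CPM in control libraries. The log2 fold change of 0.10 ± 0.10 had the narrowest interval, -0.13 to 0.32, which spans folds of 0.915 to 1.25.

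Dusp4 (ENSMUSG00000031530, chromosome 8, 34807297 to 34819894) encodes a nuclear phosphatase of ERK and related kinases. It had 5.18, 7.16, 7.74 and 4.75 CPM in SmoM2 libraries and 4.79, 12.0, 5.97 and 9.04 CPM in control libraries. The 2 highest values were controls, but control library 1 lay next to the lowest SmoM2 library, so the groups overlapped. Dusp4 thus had a log2 fold change of -0.36 ± 0.31 (95% interval -1.05 to 0.34), and -0.54 to -0.09 when libraries were left out singly.

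Dusp5 (ENSMUSG00000034765, chromosome 19, 53529109 to 53542431) encodes a nuclear phosphatase that acts on ERK and holds it there. It had 29.8, 27.9, 26.2 and 34.1 CPM in SmoM2 libraries and 39.2, 35.7, 47.2 and 22.4 CPM in control libraries. Of the controls, 3 lay above all SmoM2 libraries and the other, control library 4, lay below them all. The mean was 29.5 ± 3.42 CPM in SmoM2 and 36.1 ± 10.4 CPM in control libraries. For Dusp5 the log2 fold change was -0.29 ± 0.21 (95% interval -0.77 to 0.18). An antisense gene shares 547 bases of exon with Dusp5, so a share of its reads could belong to that gene if strand was not used.

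Dusp6 (ENSMUSG00000019960, chromosome 10, 99263231 to 99267489) encodes the cytoplasmic phosphatase that is selective for ERK and is a standard readout of FGF signalling. It had 130.9, 110.2, 132.4 and 84.6 CPM in SmoM2 libraries and 127.8, 113.5, 98.8 and 124.7 CPM in control libraries. SmoM2 library 4 was the lowest of the 8, and SmoM2 libraries 3 and 1 were the highest. Between groups the log2 fold change of Dusp6 was -0.02 ± 0.15 (95% interval -0.37 to 0.33). It was above 0 without SmoM2 library 4 (0.10), control library 1 (0.03) or control library 4 (0.01). The summed level of 14 immediate-early genes, which include Fos and Egr1, was also lowest in SmoM2 library 4. It was 16580 CPM there, against 27110 to 39180 CPM in the other 7. Control library 3, whose Dusp6 level of 98.8 CPM was the next lowest, had the highest such sum, 39180 CPM. The part of these genes in the Dusp6 level was not tested.

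Etv4 (ENSMUSG00000017724, chromosome 11, 101769742 to 101785371) was the least abundant of the 9. It had 4.10, 3.30, 1.59 and 2.63 CPM in SmoM2 libraries and 1.40, 3.20, 1.82 and 0.465 CPM in control libraries. The highest library was 8.81 times the lowest, control library 4, whose 55 units correspond to about 11 fragments. SmoM2 libraries 3 and 4 lay among the controls. The mean was 2.90 ± 1.06 CPM in SmoM2 and 1.72 ± 1.14 CPM in control libraries. The log2 fold change of 0.76 ± 0.53 was the largest of the 9 in size and had the widest interval, -0.46 to 1.97, or folds of 0.726 to 3.93.

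Etv5 (ENSMUSG00000013089, chromosome 16, 22381309 to 22439719) encodes the related ETS factor. It had 34.3, 27.5, 28.3 and 30.1 CPM in SmoM2 libraries and 26.8, 29.9, 19.8 and 29.6 CPM in control libraries. The highest value was in SmoM2 library 1 and the lowest in control library 3, and the other 6 lay between 26.8 and 30.1 CPM. For Etv5 the log2 fold change was 0.18 ± 0.14 (95% interval -0.15 to 0.51).

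**Figure D2:**
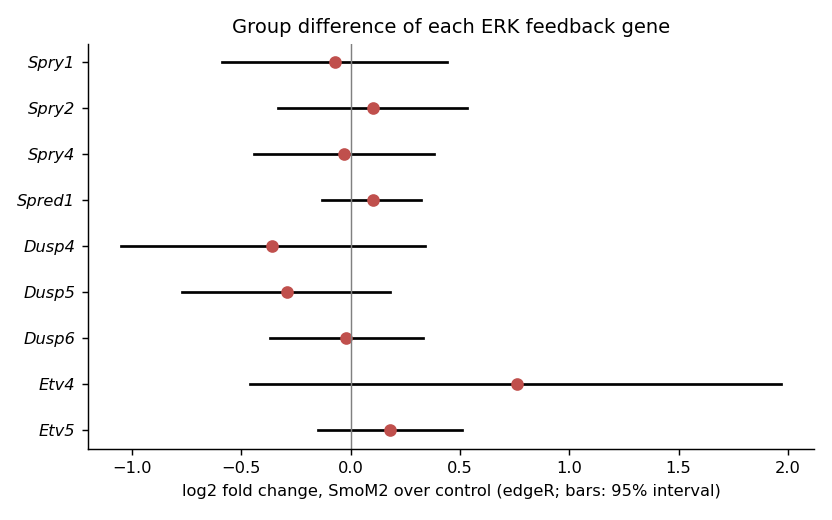
Log2 fold change of SmoM2 over control (x axis) for each of the 9 genes (rows), with points for the edgeR estimates and bars for 95% intervals. All 9 bars cross 0, from the narrowest in Spred1 (-0.13 to 0.32) to the widest in Etv4 (-0.46 to 1.97).

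Levels of different genes were compared as CPM per kilobase of annotated exon, averaged over the 8 libraries. Spry1 stood highest at 65.4 ± 16.3 CPM per kb (SD, n = 8), followed by Spry2 at 42.0 ± 8.18 and Dusp6 at 36.8 ± 5.43 CPM per kb. A middle group followed, with Spred1 at 16.2 ± 1.49, Spry4 at 14.4 ± 2.65 and Dusp5 at 13.3 ± 3.23 CPM per kb. Etv5 had 6.89 ± 1.01, Dusp4 2.58 ± 0.913 and Etv4 0.745 ± 0.386 CPM per kb. Spry2 exceeded Dusp6 in 4 of 8 libraries, Spred1 exceeded Spry4 in 6 and Spry4 exceeded Dusp5 in 5, so the order of these neighbours varied between libraries. Spry1 exceeded Spry2 in all 8, and the steps from Dusp6 to Spred1, Dusp5 to Etv5, Etv5 to Dusp4 and Dusp4 to Etv4 separated the 8 libraries of each gene without overlap. The order of all 9 was the same with the length of the longest transcript, but with that length Spred1 exceeded Spry4 in 8 of 8 libraries, so this step depends on the length used.

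**Figure D3:**
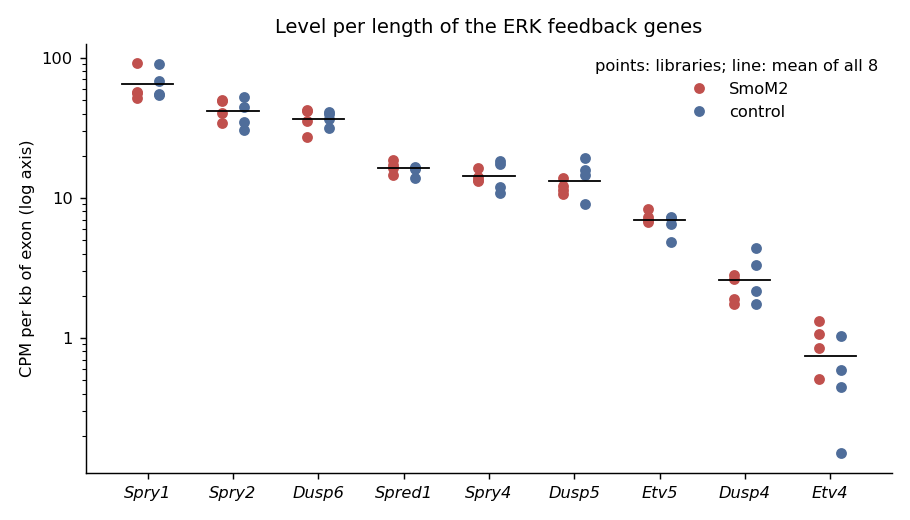
Level of each ERK feedback gene per kilobase of exon (log axis, CPM per kb) in the 8 libraries, SmoM2 and control, with genes in order of their mean. The levels run from 65.4 CPM per kb for Spry1 to 0.745 CPM per kb for Etv4, and the symbols of the groups are mixed within each gene.

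Within families, the same scale gave Spry1 53.4%, Spry2 34.7% and Spry4 11.9% of the summed level of these Sprouty genes. Dusp6 held 69.7% of the level of the 3 Dusp members, and Etv5 90.5% of that of Etv4 and Etv5. The remaining relatives had their own places. Dusp1, a phosphatase of p38, JNK and ERK and itself an immediate-early gene, reached 861.4 ± 188.3 CPM per kb, far above Dusp6. Spred2, a relative of Spred1, reached 15.4 CPM per kb, and Etv1, the third member of the Etv4 and Etv5 subfamily, 2.13 CPM per kb. Mapk3, which encodes ERK1, stood at 62.3 CPM per kb.

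The libraries did not rank the 9 genes alike, as the map of centred levels shows. Control library 2 had the highest Dusp4 and the second highest Spry1 and Spry4, and SmoM2 library 2 had the highest Spry1 and the second highest Spry2. Control library 3 had the highest Spry2, Spry4 and Dusp5 of the 8 and the lowest Etv5. Control library 4 had the lowest Spry2, Dusp5 and Etv4. By summed CPM it was also the library richest in epithelial and endothelial markers. Its sums of stromal and cartilage markers and of heat shock and inflammatory genes were the lowest of the 8. The mean log2 level over the 9 genes was 5.28 ± 0.11 in SmoM2 and 5.21 ± 0.27 in control libraries (SD, n = 4 each).

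**Figure D4:**
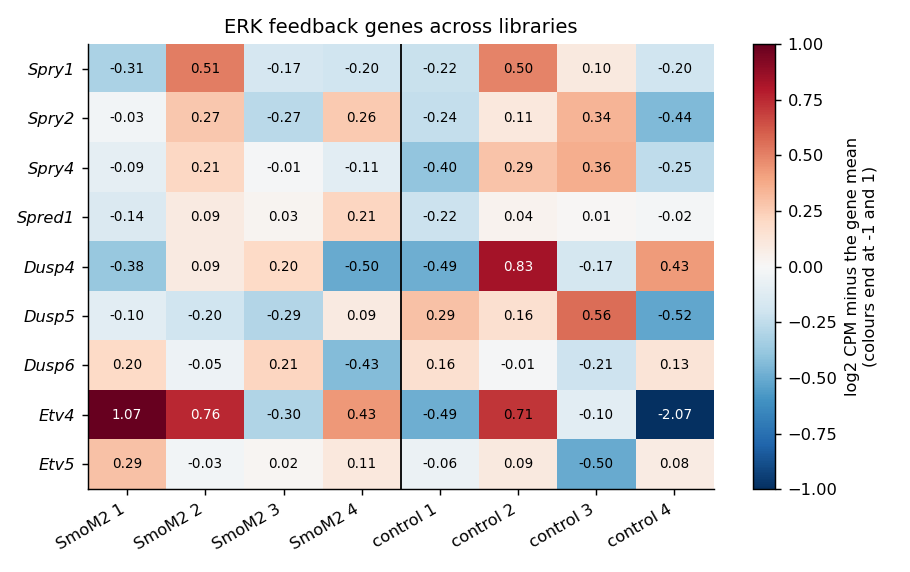
Log2 CPM of each ERK feedback gene (rows) minus its mean over the 8 libraries (columns, SmoM2 left of control), with red above and blue below the mean. Spry1, Spry2 and Spry4 share red in SmoM2 library 2 and control libraries 2 and 3, and Dusp6 is blue in SmoM2 library 4 and control library 3, where Spry2 is red.

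Over the 8 libraries, Pearson correlations of log2 CPM were computed for all 36 pairs as a description. Within a library, both genes of a pair were scaled by the same total and came from the same sort. The Sprouty genes varied in parallel: r was 0.76 for Spry1 with Spry4, 0.72 for Spry2 with Spry4 and 0.54 for Spry1 with Spry2. These values held within groups (0.77, 0.74 and 0.59) and without the 2 libraries farthest from the median of the first-named gene (0.80, 0.78 and 0.53). Dusp6 ran opposite to Spry2, with r of -0.77, Spearman's rho of -0.76, -0.77 within groups and -0.78 without SmoM2 library 3 and control library 4. Dusp6 also ran opposite to Spred1 (r of -0.76, and -0.51 without SmoM2 library 4 and control library 1). The r of 0.71 between Spry2 and Etv4 dropped to 0.25, and that of 0.60 between Spry2 and Dusp5 to 0.06, without SmoM2 library 3 and control library 4, so both rested on those libraries. Etv4 and Etv5 had an r of 0.20.

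The genes whose pattern over the 8 libraries was most like each member were sought among 10792 genes that averaged 5 CPM or more. Picking the nearest of so many over 8 libraries yields high values by itself, and the least of the 3 nearest r over all members was 0.920. For Spry2 the nearest were Samd4b (r of 0.991), the chemokine gene Ccl2 (0.989) and the integrin gene Itgb3 (0.985). Ccl2 had 37.7, 65.8, 18.3 and 74.9 CPM in SmoM2 libraries and 21.8, 60.9, 76.9 and 13.1 CPM in control libraries. The same 3 libraries, control 4, SmoM2 3 and control 1, were lowest for Spry2 and for Ccl2, and both groups contributed to either end. The mean log2 level of 15 inflammatory genes, a list that holds Ccl2, was lowest in these 3 libraries too, at 6.46 in control library 4, 6.69 in SmoM2 library 3 and 6.73 in control library 1, and reached up to 7.64 in the others. The same 3 libraries were also lowest for the 17 other ERK target genes, at 4.45, 4.64 and 4.72 in the same order. They were lowest for the 6 heat shock genes too, at 8.2, 8.4 and 8.26. The part of inflammatory state, or of any such shared pattern, in the Spry2 level was not tested. Both SmoM2 library 3 and control library 4 also stood out for the lung epithelial surfactant gene Sftpc, with 563.9 CPM in the SmoM2 library and 991.8 CPM in the control library, against 86.4 to 212.6 CPM in the other 6.

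**Figure D5:**
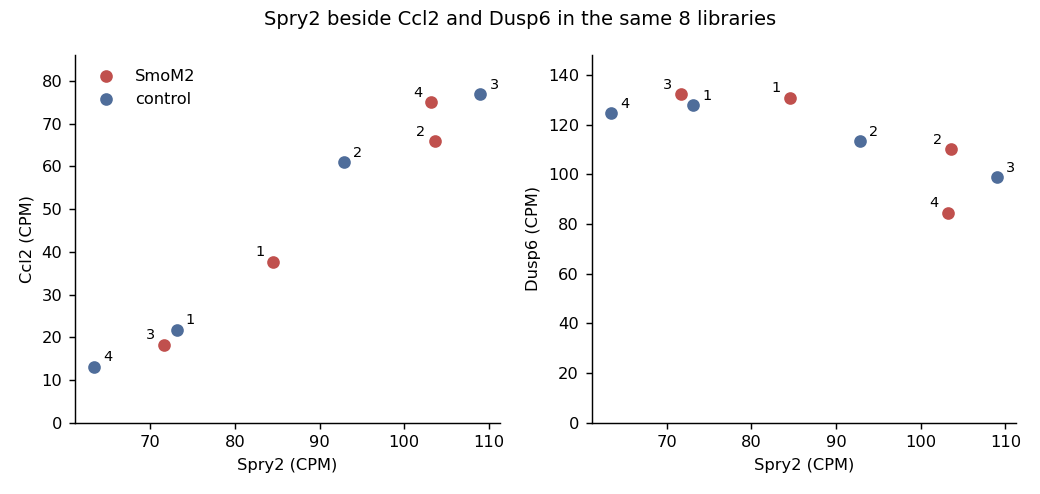
Spry2 (x axes, CPM) against Ccl2 (left) and Dusp6 (right; y axes, CPM) in the same 8 libraries, numbered within SmoM2 and control. Ccl2 climbs with Spry2 from 13.1 to 76.9 CPM while Dusp6 is higher where Spry2 is lower, and the points of both groups lie along both courses.

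For Spry4 the nearest were Socs7 (r of 0.988), Lrba (0.983) and Maml1, a Notch co-activator (0.981). For Spry1 they were Chmp3, a subunit of the ESCRT-III complex (0.958), Mindy3 (0.953) and Fgf11 (0.938). Chmp3 had 25.6, 76.8, 22.4 and 21.8 CPM in SmoM2 libraries and 23.9, 77.3, 29.0 and 21.0 CPM in control libraries, high in the same libraries 2 of both groups, and its r with Spry1 was 0.58 without them. Spred1 was nearest to the stress-response gene Gadd45a (0.954), Bach1 (0.942) and Chrdl1 (0.939). Dusp4 was nearest to Zfp14 (0.987), Sap18 (0.981) and Guk1 (0.957). Dusp5 was nearest to the autophagy gene Atg7 (0.944), Tmem39b (0.935) and the mitochondrial phosphate carrier Slc25a3 (0.920). Dusp6 was nearest to Slc2a13 (0.970), Trmt10b (0.948) and Psmd5 (0.945). Etv4 was nearest to Fry (0.993), Cacng7 (0.982) and Vcp-rs (0.977), whose reads may be shared with its parent Vcp, and Etv5 to Tspan3 (0.973), Usb1 (0.957) and Pitpnc1 (0.952). Chmp3 was not alone in resting on the 2 libraries farthest from the median of the member. Without those, r fell to 0.54 for Tspan3 and 0.60 for Pitpnc1 with Etv5, and to 0.70 for Psmd5 with Dusp6. Others held, with 0.99 for Fry with Etv4 and 0.98 for Socs7 with Spry4.

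In the rest of the pathway, 0 genes were called in each list by edgeR's quasi-likelihood test with Benjamini-Hochberg adjustment. Of 24 receptor tyrosine kinase genes, 10 were higher and 14 lower in mean level in SmoM2, with a median log2 fold change of -0.03. At an unadjusted p under 0.05, 3 of the 24 passed (Egfr, Kdr and Axl; 3.75% of all genes tested did), and for 2 of the 24 the groups did not overlap (2.44% of all genes tested). These were Egfr and Kdr, named after their values were seen. Egfr, the EGF receptor gene, had 297.2, 272.5, 238.7 and 299.2 CPM in SmoM2 libraries and 191.8, 123.0, 192.4 and 203.4 CPM in control libraries, a log2 fold change of 0.64 ± 0.16. All 4 SmoM2 libraries lay above all 4 controls. Kdr, the endothelial VEGF receptor gene and a marker on the endothelial list, had 16.3, 15.4, 8.37 and 9.40 CPM in SmoM2 libraries and 18.5, 23.3, 34.2 and 16.6 CPM in control libraries, a log2 fold change of -0.90 ± 0.29. All 4 SmoM2 libraries lay below all 4 controls. Pdgfra, the PDGF receptor of lung fibroblasts, had 1966 ± 155.3 CPM in SmoM2 and 1748 ± 293.3 CPM in control libraries. The collagen receptor gene Ddr2 had 704.7 ± 9.70 CPM in SmoM2 and 662.8 ± 112.9 CPM in control libraries. Axl, the receptor for GAS6, had 844.1, 736.0, 388.9 and 909.8 CPM in SmoM2 libraries and 453.4, 466.1, 556.0 and 330.2 CPM in control libraries. Of the SmoM2 libraries, 3 lay above all controls and SmoM2 library 3 lay among them, a log2 fold change of 0.67 ± 0.27. In the cascade itself, 16 of 28 genes were higher and 12 lower, with a median of 0.01. Ptpn11, which encodes the phosphatase SHP2, had 171.1 ± 8.70 CPM in SmoM2 and 162.2 ± 7.69 CPM in control libraries. The scaffold gene Ksr1 had 151.7 ± 24.2 CPM in SmoM2 and 173.6 ± 23.7 CPM in control libraries, and Mapk3 had 137.8 ± 7.46 CPM in SmoM2 and 143.4 ± 11.3 CPM in control libraries.

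Nf1, singled out after its values were seen, was the 1 cascade gene of 28 whose groups did not overlap (2.44% of all genes tested), with 83.1, 89.1, 84.9 and 85.2 CPM in SmoM2 libraries and 76.7, 78.5, 76.8 and 79.7 CPM in control libraries. The log2 fold change was 0.13 ± 0.06 (95% interval -0.01 to 0.28), and it was not called.

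Among the remaining relatives and targets, 4 of 6 MAP kinase phosphatases tested were higher in mean level and 2 lower, with a median log2 fold change of 0.02. Dusp1 had 2680 ± 476.8 CPM in SmoM2 and 3024 ± 775.1 CPM in control libraries, which overlapped. Dusp8 had 64.5 ± 16.6 CPM in SmoM2 and 63.4 ± 22.5 CPM in control libraries, and Dusp16, like Dusp8 mainly a phosphatase of JNK and p38, had 29.1 ± 3.51 CPM in SmoM2 and 28.8 ± 11.0 CPM in control libraries. Of the Sprouty and Spred relatives, 2 were higher and 1 lower in mean level, with a median log2 fold change of 0.0. Spred2 had 71.0 ± 4.61 CPM in SmoM2 and 71.0 ± 6.08 CPM in control libraries, and Spred3 10.3 ± 1.63 CPM in SmoM2 and 9.64 ± 2.74 CPM in control libraries. Spry3 stood at 0.788 ± 0.301 CPM in SmoM2 and 0.819 ± 0.486 CPM in control libraries. Of 17 other ERK target genes, 7 were higher and 10 lower, with a median of -0.04; the feedback inhibitor of EGF receptors Errfi1 had 1570 ± 325.1 CPM in SmoM2 and 1561 ± 637.4 CPM in control libraries. Phlda1 had 229.2 ± 34.9 CPM in SmoM2 and 265.5 ± 53.4 CPM in control libraries. Lif, which encodes a cytokine of the IL-6 family, had 240.3 ± 116.8 CPM in SmoM2 and 205.8 ± 141.9 CPM in control libraries. Of 14 immediate-early genes, 1 was higher and 13 lower, with a median of -0.16. Fos, with 4600 ± 1729 CPM in SmoM2 and 5458 ± 732.1 CPM in control libraries, was lowest in SmoM2 library 4 at 2054 CPM. Of 6 heat shock genes, 2 were higher and 4 lower (median -0.19), and of 15 inflammatory genes, 6 were higher and 9 lower (median -0.06).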

How the data were processed

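YFP+ cells of 8 adult mouse lungs, 4 SmoM2 and 4 control, were measured by poly(A) RNA-seq. Reads were processed with FastQC, HISAT, StringTie and DESeq on the build mm10, per the submitters' processing notes. The deposited values per gene are whole-number estimated counts made by the authors with no normalization; they are not fragment counts, since the most frequent value above 0 is 5 units in every library. The authors' deposited comparison table gives mean normalized signal per group, the fold ratio, its log2 value and p-values. Its column directions were checked against the counts. The deposited columns show a group and a number but not the animal, so p-values measure the spread between libraries labelled as separate mice.

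Here, counts were fitted with edgeR 4.0.16 in R 4.3.3: TMM scaling, filterByExpr, a robust quasi-likelihood test and Benjamini-Hochberg adjustment over 20162 genes at 0.05. Log2 CPM used a prior count of 2. Exon lengths came from the annotation of mm10. DESeq2 1.42.0, limma 3.58.1 (voom) and the other settings of the closing section were alternatives. The members and lists were chosen with earlier results of these data known. Named were the 9 members, the 3 most abundant genes of a pathway list, the 3 genes nearest to each member, and the Hedgehog readout; not all are printed.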

Additional observations from a re-analysis of the deposited data

Results flagged for a closer look

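The Spry1 level of SmoM2 library 2, at 264.6 CPM, was far from the other SmoM2 libraries, which lay between 149.2 and 164.7 CPM. The gap to its nearest neighbour made up 0.866 of the range of the group, above Dixon's 95% critical value for 4 samples. It was the only such value in 18 groups of 4 libraries tested, and chance flags about 5% of groups. Without this library the Spry1 log2 fold change was -0.30, against -0.07 with all of them. Control library 2 was almost as high, at 261.3 CPM, but its gap was 0.617 of the range of its group, below the critical value. Without control library 2 the log2 fold change was 0.10.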

How the results depend on the processing

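No ERK feedback gene was called under any of 17 other settings: RLE or upper quartile factors, no filter on low counts, DESeq2, limma-voom, non-robust dispersion, counts divided by 5, sex as a covariate, each of the 8 libraries left out, and the library richest in epithelial markers of each group left out, chosen after seeing the data. Sex was inferred from the expression of Xist and Y-linked genes in these libraries, with 2 males per group. Over all genes, the number called was 0 except for 69 with DESeq2 and 0 to 1 when libraries were left out singly (the 1 was Gm20716, without SmoM2 replicate 4); the cause was not tested. The median log2 fold change of the 9 genes was -0.02 to 0.10 with single libraries left out and -0.06 to 0.0 under the other settings. The sign of Spry1 (-0.30 to 0.10), Spry2 (-0.01 to 0.24), Spry4 (-0.15 to 0.09) and Dusp6 (-0.10 to 0.10) depended on which library was left out: values of the opposite sign were 0.01 and 0.10 for Spry1, -0.01 for Spry2, 0.01, 0.06 and 0.09 for Spry4, and 0.10, 0.03 and 0.01 for Dusp6. With single libraries left out, Spred1 ranged over 0.04 to 0.15, Dusp4 over -0.54 to -0.09, Dusp5 over -0.46 to -0.14, Etv4 over 0.44 to 1.24 and Etv5 over 0.06 to 0.24. Under the other 9 settings the ranges were 0.09 to 0.11, -0.41 to -0.28, -0.41 to -0.23, 0.64 to 1.0 and 0.17 to 0.27 in the same order, and these 5 genes kept their sign under all 17. No paired analysis was possible because the labels number 8 different animals and no number ties a SmoM2 mouse to a control mouse. With 4 mice a group, the intervals leave room for differences of the size shown, widest for Etv4, whose lowest library held about 11 fragments.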
